A study of Mus musculus with 56 samples.

Results

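Thermogenic and brown-fat genes were followed in visceral adipose tissue (VAT) of mice fed only by day or only by night. The 9 genes are Ucp1, Cidea, Dio2, Ppargc1a, Ppargc1b, Elovl3, Prdm16, Ucp2 and Ucp3. They were taken by their gene identifiers from the deposited VAT table, which lists 25939 genes, and all 9 were present. C57BL/6J female mice, 9 weeks old at collection, had been kept for 7 days on daytime-restricted feeding (DRF) or on nighttime-restricted feeding (NRF, the reference), with normal chow in a 12-h light, 12-h dark cycle. Tissue was collected at zeitgeber times (ZT) 0, 4, 8, 12, 16, 20 and 24, where ZT0 is lights on, from 4 mice per regimen and time, which gave 14 groups and 56 libraries of polyA RNA. No genotype, drug or cold exposure entered the design, and the labels do not say whether mice that share a replicate number share anything else. The labels name visceral fat without a depot, and the clock hours of food access are not given in the sources used here, so feeding time was counted from the start of the light phase (DRF) or the dark phase (NRF).

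Brown and beige adipocytes burn fuel to make heat. UCP1 lets protons leak across the inner mitochondrial membrane, so that respiration runs without making ATP. Noradrenaline starts this programme through beta-adrenergic receptors and cAMP, the coactivators PGC-1α and PGC-1β drive the mitochondrial genes, PRDM16 sets brown identity, and the deiodinase DIO2 makes active thyroid hormone inside the cell. White visceral fat normally carries little UCP1, while the related carriers UCP2, made in many tissues, and UCP3 are not thought to be dedicated heat producers. The design asks whether the time of feeding moves these genes in level, in timing, or in both.

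The genes lie apart in the genome except for a pair. On mouse build GRCm38, Ucp1 is at chr8:83290352-83298452 on the plus strand, Dio2 at chr12:90724552-90738438 on the minus strand, Ppargc1a at chr5:51454250-51567726 on the minus strand, Elovl3 at chr19:46131897-46135694 on the plus strand and Prdm16 at chr4:154316125-154636873 on the minus strand. Ucp3 (chr7:100472990-100486432) and Ucp2 (chr7:100493337-100502020) are neighbours on the plus strand of chromosome 7, with 6904 bases between the end of Ucp3 and the start of Ucp2. The stretches just upstream of the 3 uncoupling protein genes are shown because these paralogs moved differently in the data, and Ucp2 and Ucp3 did so from adjacent positions. They come from RefSeq on GRCm38.p6, which held a promoter entry for 6 of the 9 genes, and they stop before the annotated start of the gene. Capitals mark AGGTCA, the half-site of many nuclear receptors, searched on both strands.
Ucp1 (chr8:83290098-83290347): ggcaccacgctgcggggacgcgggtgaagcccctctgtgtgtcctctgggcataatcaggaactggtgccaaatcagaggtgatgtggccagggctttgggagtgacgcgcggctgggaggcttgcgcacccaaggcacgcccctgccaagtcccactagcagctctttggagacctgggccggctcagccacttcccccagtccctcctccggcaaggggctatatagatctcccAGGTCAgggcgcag
Ucp2 (chr7:100493108-100493336): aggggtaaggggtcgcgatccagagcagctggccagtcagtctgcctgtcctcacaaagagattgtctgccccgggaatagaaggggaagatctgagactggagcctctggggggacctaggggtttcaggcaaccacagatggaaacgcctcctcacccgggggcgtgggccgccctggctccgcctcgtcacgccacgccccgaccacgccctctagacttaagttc
Ucp3 (chr7:100472741-100472989): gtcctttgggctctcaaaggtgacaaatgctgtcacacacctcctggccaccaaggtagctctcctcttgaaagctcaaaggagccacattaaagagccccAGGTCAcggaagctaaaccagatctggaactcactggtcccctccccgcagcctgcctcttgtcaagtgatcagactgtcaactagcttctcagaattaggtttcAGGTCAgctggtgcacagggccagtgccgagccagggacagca
AGGTCA was found at 1 position upstream of Ucp1, at 2 upstream of Ucp3 and at none upstream of Ucp2, and 14% of 32851 RefSeq mouse promoters hold it in the 250 bases before the start. The letters of an E-box (CACGTG), a cAMP response element (TGACGTCA) and a forkhead site (GTAAACA) were in none of the 3 windows. Over all promoters their shares were 6.02%, 1.55% and 3.17%, so an absence from so few windows is the usual case.

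Levels are given as CPM, the reads of a gene per 1000000 reads of its library's effective size, both taken back from the deposited values. Effective sizes ran from 31.8 to 47.3 M reads, and recovered reads per library from 31309503 to 41467163. No member was at 0 reads in any library. The tissue carried the markers of fat, with 10 adipocyte markers summing to between 17650 and 56880 CPM. The libraries DRF ZT8 replicate 1 and DRF ZT0 replicate 4 stood apart, with epithelial markers summing to 457 and 953 CPM against 17.9 to 76.4 CPM in the other 54 libraries, and with the lowest adipocyte sums (17650 and 25530 CPM). The library NRF ZT24 replicate 4 stood apart in another way, with liver markers summing to 1580 CPM against at most 72.9 CPM in the other libraries. Skeletal muscle markers summed to 41.2 to 727 CPM (median 109.7 CPM under DRF and 88.9 CPM under NRF), with the highest sums in NRF ZT8 replicate 4 (727 CPM), DRF ZT16 replicate 2 (557 CPM), NRF ZT24 replicate 4 (530.1 CPM) and DRF ZT24 replicate 1 (449 CPM). Of the brown-fat identity genes, Zic1 and Lhx8 had no entry under those symbols among the genes used here, so their levels cannot be given. In whole tissue, fewer cells of a type and less RNA per cell cannot be told apart.

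Per kilobase of exons, Ucp1 was not the most abundant uncoupling protein transcript of this tissue. The median over 56 libraries was highest for Ucp3 (22.0 CPM per kb) and Ucp2 (17.2 CPM per kb), which encode mitochondrial carriers of the uncoupling family. Their order depends on the exon lengths used, 3135 bases for Ucp3 and 6989 bases for Ucp2. Before division by length, Ucp2 was the higher, with a median of 120.3 CPM against 68.9 CPM for Ucp3. Cidea, which encodes a lipid droplet protein abundant in brown fat, followed at 13.2 CPM per kb. Elovl3, a fatty acid elongase of very long chains, and Ucp1 were next and close together, at 3.70 and 3.60 CPM per kb. The regulators were lower: Ppargc1b at 2.05 CPM per kb, Ppargc1a at 1.03 CPM per kb and Prdm16 at 0.90 CPM per kb. Dio2 was the lowest, at 0.491 CPM per kb. The ranges of neighbours in this order overlapped over the libraries for every pair. The lengths of Cidea and Elovl3 were read from the values, because the reference length did not give whole reads.

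**Figure D1:**
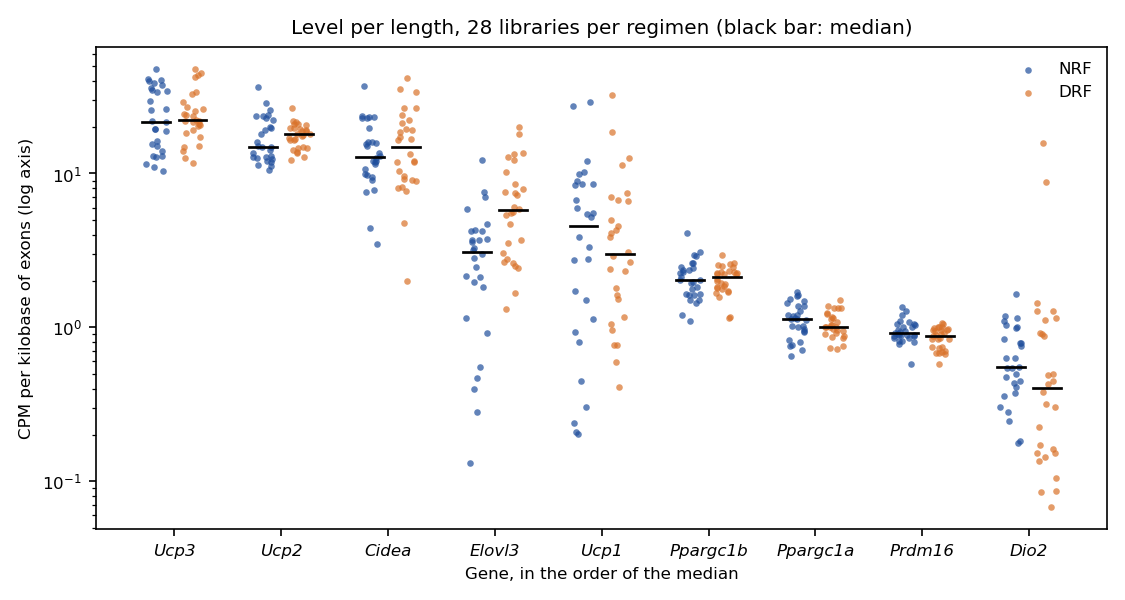
Level of the 9 genes in CPM per kilobase of exons (log axis), with 1 point per library, 28 NRF and 28 DRF libraries per gene, and a black bar at the median of each regimen. Ucp3, Ucp2 and Cidea sit highest (medians over all libraries 22.0, 17.2 and 13.2 CPM per kb), and the points of Ucp1, Elovl3 and Dio2 spread most.

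The members ranged from steady genes to genes that varied widely from mouse to mouse. Between its lowest and highest library Ucp1 differed by 160-fold (0.333 to 53.2 CPM), Elovl3 by 153-fold (0.197 to 30.04 CPM) and Dio2 by 231-fold (0.394 to 91.2 CPM). Without the 2 libraries that stood apart, Dio2 differed by 24.4-fold, with a highest value of 9.61 CPM, and Cidea by 11.8-fold against 20.8-fold with them. Prdm16 differed by only 2.35-fold (5.39 to 12.7 CPM) and Ppargc1a by 2.63-fold (4.26 to 11.2 CPM). Much of the wide spread lay between mice of the same group. The pooled within-group SD of log2(CPM + 1) was 1.24 for Ucp1, 1.04 for Dio2, 0.93 for Elovl3 and 0.70 for Cidea, against a median of 0.18 over all genes tested. Each of these exceeded at least 98.9% of the genes within 2-fold of its mean level. Without the same 2 libraries the SD of Dio2 was 0.62, above 98.4% of such genes, while those of Ucp1 (1.25), Elovl3 (0.95) and Cidea (0.66) were close to the values with them. The SD was 0.20 for Prdm16, 0.24 for Ppargc1a and Ucp2, 0.30 for Ppargc1b and 0.39 for Ucp3. The shares of genes within 2-fold of their level that these exceeded were 48.7% (Prdm16), 63.0% (Ppargc1a), 80.3% (Ucp2), 80.4% (Ppargc1b) and 96.4% (Ucp3). Regimen and time together accounted for 69.4% of the variance of Ucp2 and 67.7% of that of Ucp3, but for 33.8% to 49.1% in the other 7, where the median over all genes was 44.7%. When the 14 groups were ordered by mean CPM, all 13 pairs of neighbouring groups overlapped for every member.

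**Figure D2:**
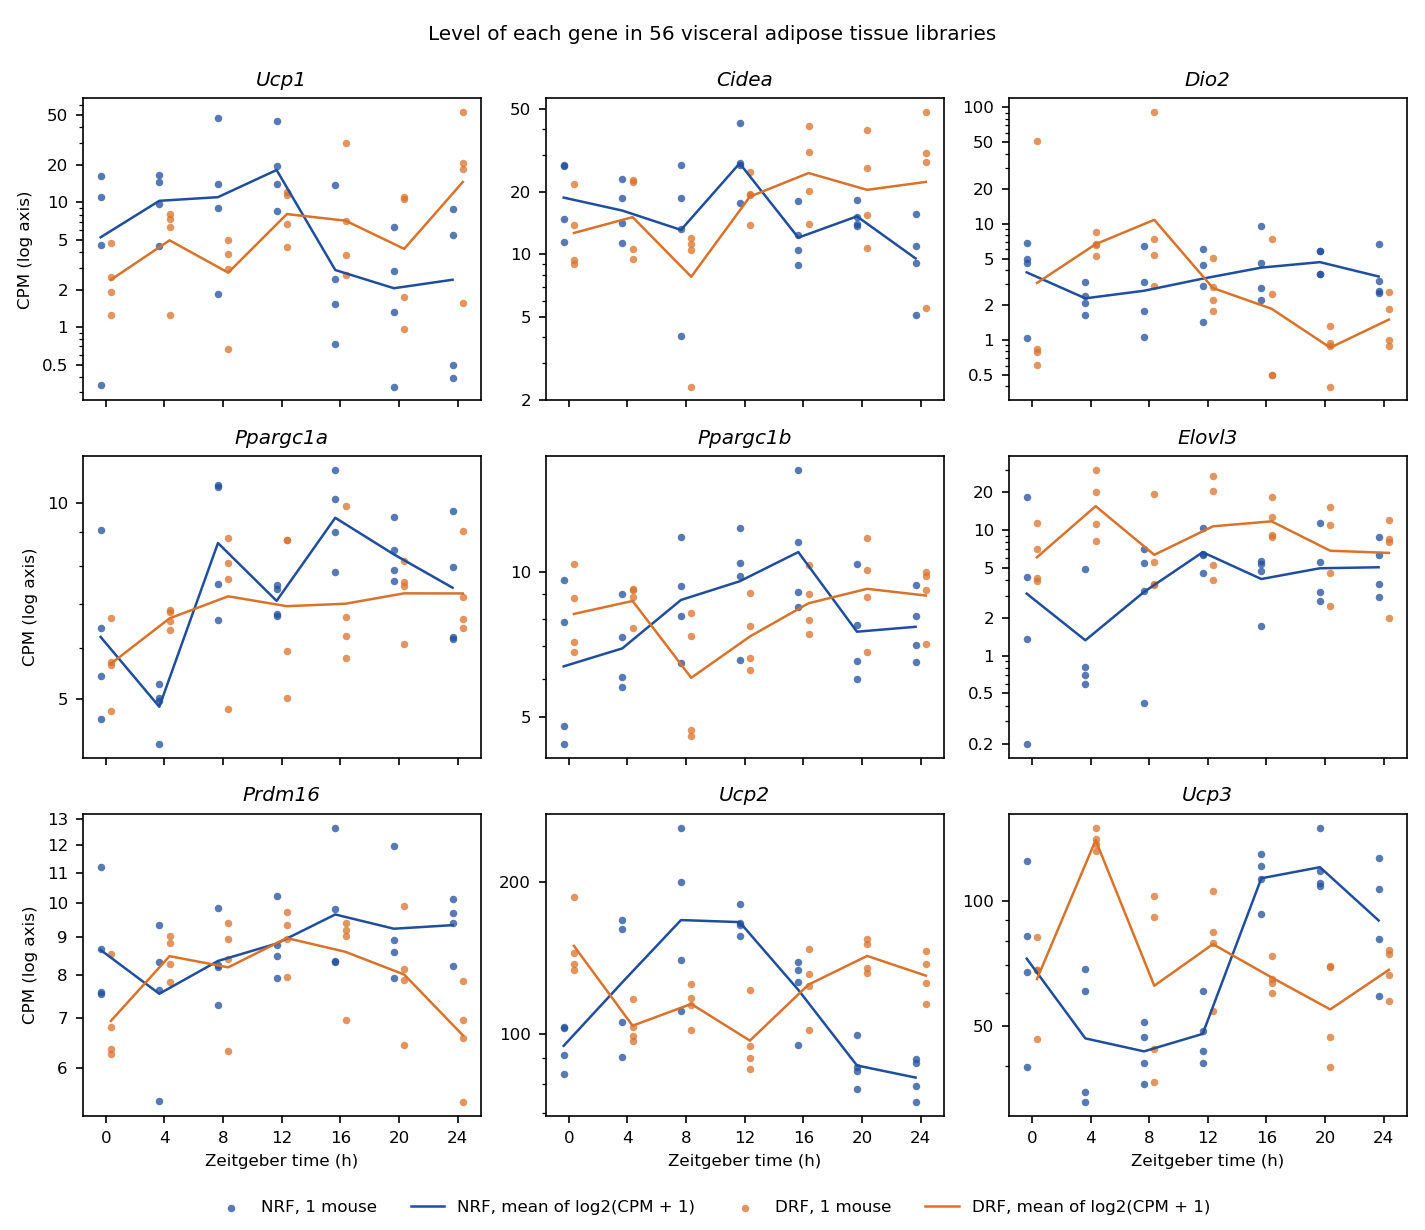
Level of each gene in CPM (log axis) against zeitgeber time in hours, with 1 point per mouse, NRF in blue, DRF in orange, and lines through the means of log2(CPM + 1) of the 4 mice in each group. Ucp2 and Ucp3 change course between the regimens, and Ucp1 spreads from 0.333 to 53.2 CPM over the 56 libraries.

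Rhythms were called within each regimen with JTK_CYCLE and Lomb-Scargle combined after MetaCycle, at an adjusted p under 0.05. Under NRF, Ucp2 and Ucp3 were called rhythmic by it, 2 of 9 members, where 31.2% of the 19748 genes tested were called. Under DRF only Ucp2 was called among the members, where the share over all genes was 16.2%. The adjusted p under NRF was 0.000115 for Ucp2 and 0.000142 for Ucp3, and Ppargc1a missed the threshold at 0.0546, but it was called without the ZT24 libraries (0.0394), without replicate 1 of every group (0.0354) and with a mean CPM of at least 1 (0.0439). Under DRF it was 0.00648 for Ucp2, and Dio2 missed it at 0.0502. The DRF call of Ucp2 was lost without replicate 2 (0.0599), 3 (0.0866) or 4 (0.185) of every group. In simulated data without a rhythm, the combined test gave an unadjusted p under 0.05 in 0.74% of genes. It is therefore strict, and a missing call by it does not show that a rhythm is absent. A 2-parameter cosine F test in limma called more members: Ucp1, Ppargc1a, Ppargc1b, Ucp2 and Ucp3 under NRF (44.6% of all genes) and Dio2, Prdm16 and Ucp2 under DRF (35.9% of all genes).

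The daily high of Ucp2 moved with the regimen. Under NRF it was low from late night to lights on, with 84.7, 86.4, 99.7 and 78.0 CPM at ZT20 and 89.5, 79.0, 73.5 and 87.9 CPM at ZT24, and high in the day, with 140.0, 256, 111 and 200.4 CPM at ZT8 and 181, 157, 166 and 164 CPM at ZT12. The ZT8 library with 256 CPM of Ucp2 (NRF ZT8 replicate 2) also had the highest macrophage marker sum of the 56 libraries, 2516 CPM against 1277 to 1553 CPM in the other NRF mice at ZT8. The part of macrophages in that value was not tested, and without this library the rhythm of Ucp2 still differed between regimens (limma adjusted p = 1.15e-09). Under DRF the order was turned round, with 133, 151, 135 and 154 CPM at ZT20 and 85.4, 122, 95.1 and 89.9 CPM at ZT12. All 4 DRF mice lay above all 4 NRF mice at ZT0, ZT20 and ZT24, and all 4 lay below at ZT12. The fitted peak was at 10.01 h under NRF and 20.7 h under DRF. The shift was 10.7 ± 1.06 h (SE, 95% interval 8.59 to 12.8 h, adjusted p = 2.45e-12), an interval that holds the 12 h between the feeding phases. The fitted peak was 2.11-fold above the trough under NRF and 1.42-fold under DRF. On the log2 scale the amplitude was lower under DRF by 0.28 ± 0.09 (SE), with an adjusted p of 0.0868.

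Ucp3 ran against Ucp2. Under NRF it was high at night, with 118, 110.1, 149.9 and 108 CPM at ZT20, and low by day, with 51.2, 36.2, 40.7 and 47.2 CPM at ZT8. Under DRF it was highest at ZT4, with 132, 137, 149.9 and 141 CPM, against 68.7, 60.7, 32.8 and 34.6 CPM under NRF at that time. DRF lay above NRF without overlap at ZT4, and below without overlap at ZT16 and ZT20. The fitted peak moved from 19.2 h under NRF to 6.09 h under DRF, a shift of 10.9 ± 1.44 h (SE, 95% interval 8.08 to 13.7 h, adjusted p = 6.72e-09). The DRF rhythm itself was not called (adjusted p = 1.0 by the combined test and 0.0527 by the limma F test), so that its peak time is less certain than that of NRF. After ZT4 the 4 DRF mice at ZT8 split into 44.0 and 36.6 CPM against 103 and 91.4 CPM. The library with 44.0 CPM is DRF ZT8 replicate 1, which stood apart. Without it and DRF ZT0 replicate 4, the limma F test called the DRF rhythm (adjusted p = 0.00753), and Ucp3 was also called higher under DRF at ZT12 (0.70 ± 0.26, adjusted p = 0.0382, against 0.0526 with all libraries). NRF ZT8 replicate 4, with the highest skeletal muscle marker sum (727 CPM), had 47.2 CPM of Ucp3. The part of muscle in the Ucp3 level was not tested.

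**Figure D3:**
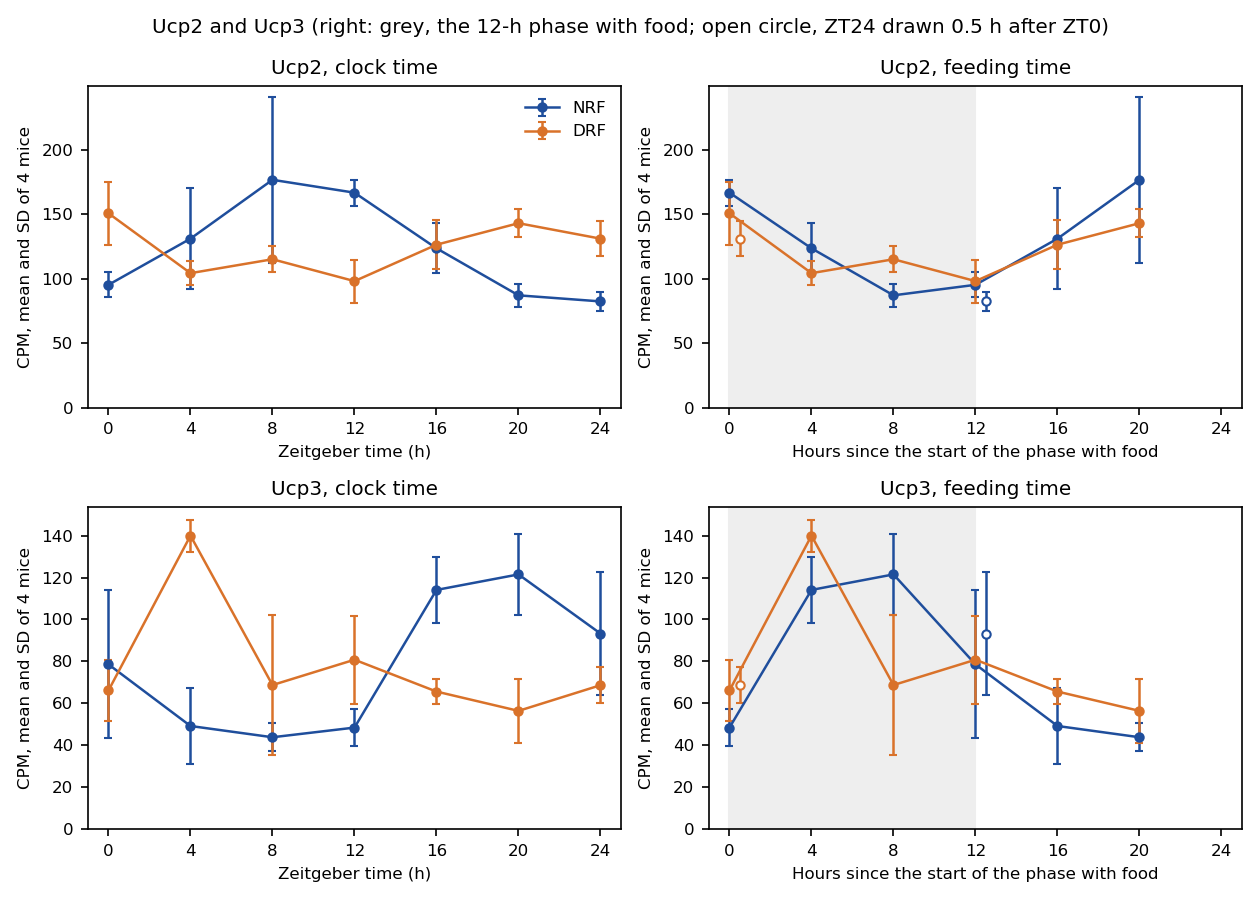
Ucp2 (top) and Ucp3 (bottom) in CPM, mean and SD of 4 mice, against zeitgeber time (left) and hours since the start of the phase with food (right, grey for that phase, open circle for ZT24 drawn 0.5 h after ZT0). In clock time the regimens cross. In feeding time the Ucp2 mean 8 h into the fast is 177 CPM (NRF) and 143 CPM (DRF), against 87.2 and 115 CPM 8 h into the phase with food, and Ucp3 rises to 140.0 CPM (DRF) and 114 CPM (NRF) 4 h into the phase with food.

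Across the 56 libraries the levels of Ucp2 and Ucp3 were inversely related (Pearson r = -0.63, Spearman rho = -0.62, permutation p = 1e-05 for both, the smallest that 100000 permutations can give). The relation was -0.66 in the 28 NRF libraries and -0.61 in the 28 DRF libraries, and -0.47 after the group means were taken off (permutation within groups, p = 0.00036). All 4 of these relations had an adjusted p of at most 0.00058. Without the 2 libraries farthest from the median of Ucp2, r was -0.60. The libraries share their RNA and their scaling.

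The fed and fasted states were compared at ZT8 and ZT20, 8 h into the light and the dark phase. Under NRF the mid-fast level (ZT8) exceeded the mid-feed level (ZT20) by 0.95 ± 0.17 on the log2(CPM + 1) scale for Ucp2 (SE, limma adjusted p = 1.99e-05), and it was lower by a difference of -1.45 ± 0.27 for Ucp3 (adjusted p = 4.35e-05). These were the 2 of 9 members called, where 29.4% of all genes were. Ucp1 differed by 1.98 ± 0.84 with an adjusted p of 0.0702. Under DRF, with ZT20 now in the fast, 1 of 9 members was called against 16.2% of all genes: Dio2, at -2.67 ± 0.70 (adjusted p = 0.00628), and at -1.68 ± 0.45 without the 2 DRF libraries that stood apart (adjusted p = 0.00832). The corresponding differences were 0.31 ± 0.17 for Ucp2 (adjusted p = 0.205) and -0.19 ± 0.27 for Ucp3 (adjusted p = 0.697). The difference between regimens in this fast-to-feed change was called for Ucp3 alone among the members, at 1.26 ± 0.38 (adjusted p = 0.0246, 11.5% of all genes called). Without the 2 libraries that stood apart it was 1.10 with an adjusted p of 0.0578. Without the mice numbered replicate 2 it was 0.86 ± 0.44 with an adjusted p of 0.376, in a fit that called 0.962% of all genes.

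Ucp1 varied between mice more than between regimens. Under NRF it ran from 0.333 through a median of 7.46 to 47.5 CPM, and under DRF from 0.673 through 4.90 to 53.2 CPM (28 libraries each). The mean difference, DRF minus NRF, was -0.18 ± 0.34 on the log2 scale (SE, 95% interval -0.85 to 0.50, adjusted p = 0.743), so a change of the mean of that size in either direction could not be told from none. Under NRF the values were 14.01, 1.86, 9.08 and 47.5 CPM at ZT8 and 19.7, 8.57, 14.02 and 44.9 CPM at ZT12, against 0.333, 1.31, 6.36 and 2.82 CPM at ZT20. The groups at ZT12 and ZT20 did not overlap, whereas those at ZT8 and ZT20 did. The value of 47.5 CPM is that of NRF ZT8 replicate 4, where skeletal muscle markers summed to 727 CPM against 41.2 to 62.1 CPM in the other 3 mice of the group, and their part in it was not tested. Under DRF the highest group was ZT24, with 20.7, 18.6, 1.57 and 53.2 CPM, and the lowest was ZT0, with 2.52, 1.92, 4.77 and 1.25 CPM. These groups stand for the same hour of the day and overlapped.

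The rhythm of Ucp1 differed between the regimens by the limma interaction test (adjusted p = 0.0361). The call was lost in 8 of 56 fits that left out a single library: DRF ZT4 replicate 3, DRF ZT8 replicates 1 and 3, DRF ZT20 replicates 2 and 3, NRF ZT8 replicate 4, and NRF ZT20 replicates 1 and 2. Adjusted p over these 56 fits ranged from 0.00999 to 0.0754, and without both libraries that stood apart it was 0.0546. The combined rhythm test called no Ucp1 rhythm under NRF (adjusted p = 0.151) or DRF (adjusted p = 1.0). The limma F test called a Ucp1 rhythm under NRF, as given above. No time point was called for Ucp1, where the largest difference was 2.20 ± 0.84 at ZT24 (adjusted p = 0.0649). Without NRF ZT24 replicate 4, the library rich in liver markers, it was 1.77 ± 0.90 (limma adjusted p = 0.207).

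Cidea followed Ucp1 from mouse to mouse. Over the 56 libraries Pearson r was 0.78 and Spearman rho 0.81 (permutation p = 1e-05 for both, the smallest possible with 100000 permutations, adjusted over 8 members to 8e-05). It was 0.80 in NRF and 0.81 in DRF, 0.84 after the 14 group means were taken off, and 0.78 without the 2 libraries in which Ucp1 was farthest from its median. Of the other 7 members none passed the adjusted threshold for Pearson r over all libraries. The nearest was Ppargc1b, with r = 0.30 (adjusted p = 0.0886) and rho = 0.34 (adjusted p = 0.0409). With the group means taken off, 4 further members had an adjusted p under 0.05 for Pearson r: Ppargc1a (r = 0.49), Elovl3 (0.41), Ppargc1b (0.37) and Ucp3 (0.36). By Spearman rho in the same setting, Dio2 passed (0.39, adjusted p = 0.0142) and Elovl3 did not (0.31, adjusted p = 0.0551). Prdm16 (r = -0.16) and Dio2 (r = -0.02) showed no relation over all libraries that passed the test.

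Cidea, at chr18:67343604-67367785 on the plus strand, ran from 4.08 through 15.0 to 43.0 CPM under NRF and from 2.32 through 17.3 to 48.3 CPM under DRF. With all libraries and the main settings it was called in none of the comparisons of level or rhythm between regimens. Its mean difference was 0.06 ± 0.20 on the log2 scale (adjusted p = 0.848), and its rhythm difference had an adjusted p of 0.129. The rhythm difference was called by limma without NRF ZT8 replicate 2 (adjusted p = 0.0283). Without replicate 2 of every group, the Wald test called a phase shift of Cidea (adjusted p = 0.0395). Its highest group was NRF ZT12, with 27.0, 17.6, 27.4 and 43.0 CPM. The values of DRF ZT8 lay below these without overlap, at 2.32, 12.0, 10.5 and 11.2 CPM, where the 2.32 CPM belongs to DRF ZT8 replicate 1, which stood apart.

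**Figure D4:**
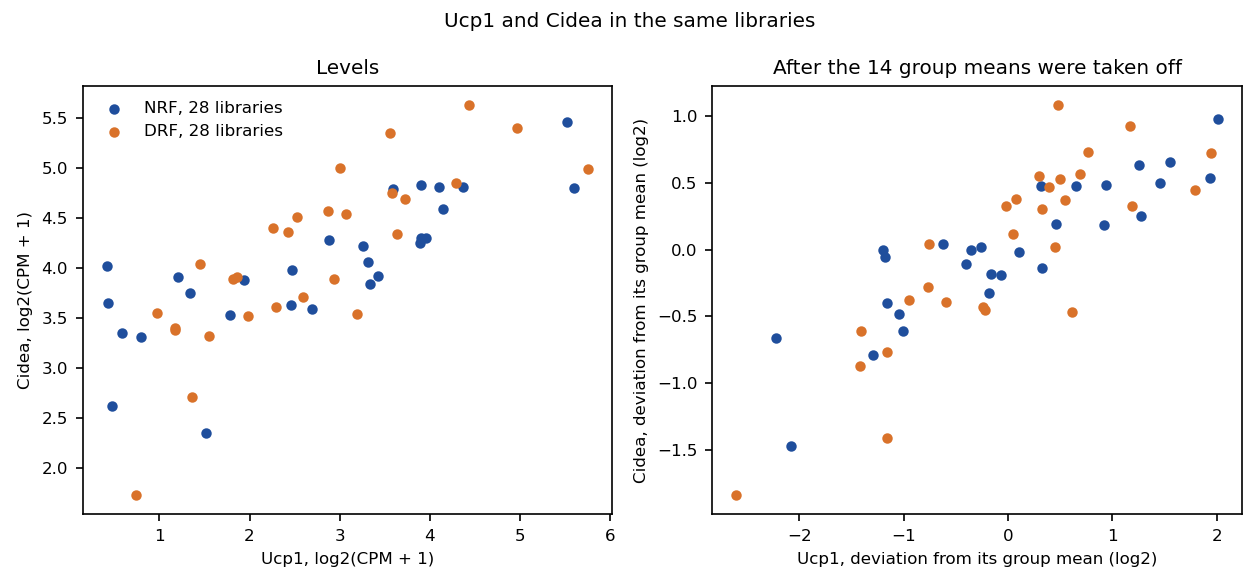
Ucp1 against Cidea in the same libraries, as log2(CPM + 1) (left) and as deviations from the 14 group means (right), with 28 NRF libraries in blue and 28 DRF libraries in orange. The points rise together in both panels (r = 0.78 and 0.84).

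Dio2, whose enzyme turns thyroxine into active T3, was low, and its course over the day differed between the regimens. Under NRF, Dio2 was called rhythmic neither by the combined test nor by the limma F test. Under DRF it was high in the day, with 6.68, 6.52, 5.30 and 8.401 CPM at ZT4, and low in the night, with 0.891, 1.31, 0.941 and 0.394 CPM at ZT20. Under NRF the values were 2.09, 2.39, 3.15 and 1.64 CPM at ZT4 and 3.69, 5.79, 5.85 and 3.69 CPM at ZT20. DRF was above NRF without overlap at ZT4 and below it without overlap at ZT20. The rhythm difference had an adjusted p of 0.00186 and was called in all 56 fits that left out 1 library.

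The highest values of Dio2 came from the libraries that stood apart. In DRF ZT8 the values were 91.2, 2.88, 7.43 and 5.36 CPM, and in DRF ZT0 they were 0.610, 0.791, 0.836 and 51.4 CPM. The high values are those of DRF ZT8 replicate 1 and DRF ZT0 replicate 4, in which epithelial markers summed to 457 and 953 CPM, and their part in the Dio2 level was not tested. Without both, the rhythm difference had an adjusted p of 2.91e-05, and the combined test called a DRF rhythm (adjusted p = 0.01002 against 0.0502 with them). In that fit Dio2 was lower under DRF at ZT0 (-1.46 ± 0.45, adjusted p = 0.0206) and ZT20 (-1.61 ± 0.41, adjusted p = 0.00344) and higher at ZT4 (1.22 ± 0.41, adjusted p = 0.019996), whereas with all libraries none of the 7 time points was called.

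Elovl3 was the only member with a different mean level. Its mean was higher under DRF by 1.01 ± 0.25 on the log2(CPM + 1) scale (SE, 95% interval 0.50 to 1.51, limma adjusted p = 0.00161). That was 1 of 9 members, where 29.6% of all genes were called, 15.4% of all genes as higher and 14.2% as lower. It held in all 56 fits that left out a single library, with an adjusted p from 0.000484 to 0.00368. Under NRF it ran from 0.197 through 4.62 to 18.3 CPM, and under DRF from 1.98 through 8.64 to 30.04 CPM.

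The difference in Elovl3 was positive at 7 of 7 time points, from 0.32 to 2.82. It was called at ZT4 alone, where DRF had 20.1, 8.22, 30.04 and 11.1 CPM and NRF had 0.820, 4.90, 0.595 and 0.704 CPM (2.82 ± 0.63, adjusted p = 0.000768). At ZT16 the groups did not overlap either, at 9.05, 8.83, 18.2 and 12.7 CPM under DRF against 1.72, 4.73, 5.64 and 5.38 CPM under NRF (1.33 ± 0.63, adjusted p = 0.164). No rhythm was called in either regimen, and the rhythm difference had an adjusted p of 0.462. Beside Elovl3, the 4 brown adipocyte markers that are not members (Cox8b, Cox7a1, Kcnk3 and Otop1) summed to 71.7 through 116 to 181 CPM under NRF and 61.8 through 135 to 176 CPM under DRF. Of them, Cox7a1, a muscle-type subunit of cytochrome oxidase, was called higher under DRF and is named here after its value was seen (0.64 ± 0.10, adjusted p = 2.13e-06). All 5 blood markers were also higher under DRF, summing to a median of 476 CPM against 274 CPM, while 6 of 10 macrophage and 4 of 7 mesothelial markers were lower. Over all genes, 15.4% were called higher and 14.2% lower. The part of these cell types in the Elovl3 difference was not tested.

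Among the coactivators, Ppargc1a was called in no comparison between regimens with all libraries and the main settings. It was low at NRF ZT4, with 4.97, 5.27, 4.26 and 5.03 CPM, and all 4 DRF mice were higher at that time, with 6.85, 6.59, 6.79 and 6.37 CPM (0.38 ± 0.17, adjusted p = 0.0845). Its NRF peak was at 15.8 h, with a fitted peak 1.46-fold above the trough, against 1.08-fold under DRF. The amplitude difference of -0.22 ± 0.10 (log2, SE) was not called (adjusted p = 0.318). Ppargc1a was not called for its mean level (-0.10 ± 0.07, adjusted p = 0.325) or for its rhythm in clock time (adjusted p = 0.182). In feeding time its rhythm difference had a limma adjusted p of 0.051, and it was called in 19 of 56 fits without a single library.

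Ppargc1b, at chr18:61298136-61400431 on the minus strand, peaked at 13.7 h under NRF and at 20.6 h under DRF, a shift of 6.88 ± 1.92 h (SE, 95% interval 3.13 to 10.6 h, adjusted p = 0.00212). The shift was 8.62 ± 2.02 h without replicate 3 of every group, and it was not called without replicate 1 (4.58 ± 2.42 h, adjusted p = 0.120). In feeding time the rhythm difference of Ppargc1b was not called (adjusted p = 0.138). At ZT16 under NRF it stood at 16.4, 11.6, 8.47 and 9.08 CPM, and at ZT8 under DRF at 4.69, 4.56, 8.23 and 7.34 CPM. Its rhythm difference was called (adjusted p = 0.00437), and in each of the 56 fits without a single library (at most 0.00949), but not without replicate 1 of every group (adjusted p = 0.172). Neither single rhythm was called by the combined test (adjusted p = 0.289 under NRF and 1.0 under DRF), but the limma F test called that under NRF.

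Prdm16, a zinc-finger regulator of brown identity, varied least among the members. It ran from 5.42 through 8.54 to 12.7 CPM under NRF and from 5.39 through 8.22 to 9.91 CPM under DRF. At ZT24 all 4 NRF mice (9.69, 10.2, 9.42 and 8.23 CPM) lay above all 4 DRF mice (6.57, 6.95, 5.39 and 7.85 CPM), a difference of -0.44 ± 0.14 (adjusted p = 0.0271). Without NRF ZT24 replicate 4 it was -0.49 ± 0.15 (adjusted p = 0.0279). At ZT0, the same hour of the day, NRF had 11.2, 7.53, 7.60 and 8.69 CPM and DRF 8.54, 6.80, 6.36 and 6.26 CPM (-0.28 ± 0.14, adjusted p = 0.178). The mean level differed by -0.11 ± 0.05 (adjusted p = 0.115).

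Over all members and times, 10 of 63 pairs of gene and time point were called different (15.9%), where 19.3% of such pairs were called over all genes. By time point the share of all genes called was 14.7% at ZT0, 27.2% at ZT4, 22.6% at ZT8, 22% at ZT12, 14% at ZT16, 18.5% at ZT20 and 16.2% at ZT24. Groups did not overlap in 13 of 63 pairs, or 20.6%, against 21.9% over all genes. The shares of all genes without overlap were 12.1%, 31.1%, 14.6%, 27.3%, 24.1%, 24.9% and 19.5% from ZT0 to ZT24 in the same order. The members' shares were near the background. Of the 10 calls, 5 were of Ucp2 (ZT0, ZT8, ZT12, ZT20 and ZT24), 3 of Ucp3 (ZT4, ZT16 and ZT20) and 1 each of Elovl3 (ZT4) and Prdm16 (ZT24). At ZT24 the Ucp2 difference was 0.66 ± 0.17 (adjusted p = 0.00433), and 0.69 ± 0.18 without NRF ZT24 replicate 4 (adjusted p = 0.0090).

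**Figure D5:**
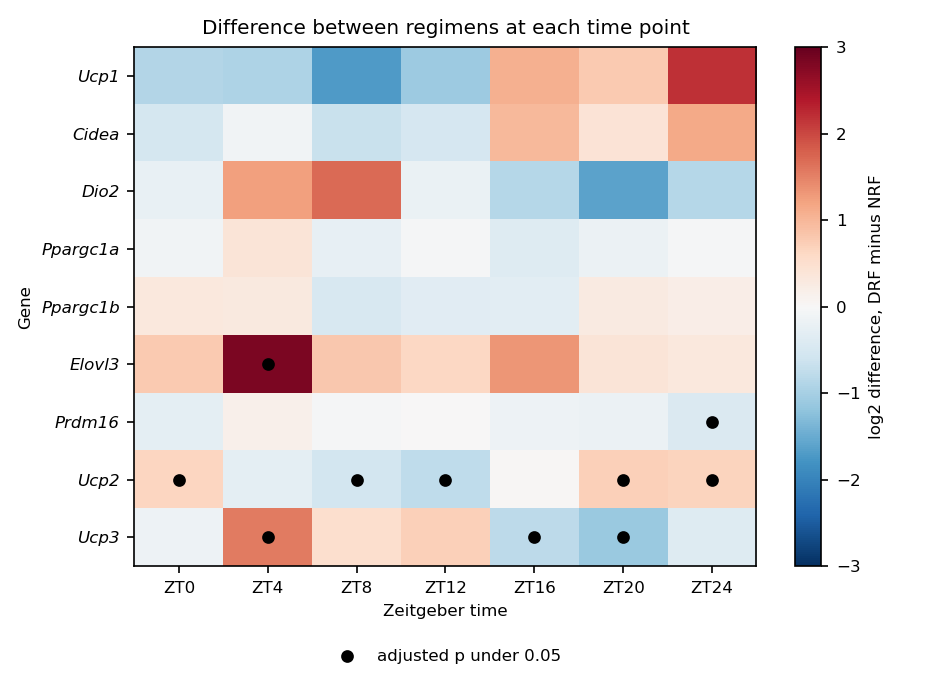
Difference between regimens, DRF minus NRF, on the log2(CPM + 1) scale for each gene (rows) at each zeitgeber time (columns), red where DRF is higher, with black dots for an adjusted p under 0.05. Ucp2 and Ucp3 carry 8 of the 10 dots, and Elovl3 is red in all 7 columns.

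The rhythm in clock time differed for 5 of 9 members (Ucp1, Dio2, Ppargc1b, Ucp2 and Ucp3) by the limma F test, where 46.6% of all genes were called. The adjusted p was 5.25e-10 for Ucp2 and 8.98e-07 for Ucp3. A phase shift was called for 5 of 9 members (Dio2, Ppargc1b, Prdm16, Ucp2 and Ucp3), against 49.9% of all genes. For Dio2 it was -11.3 ± 2.51 h (adjusted p = 0.00014) and for Prdm16 -5.50 ± 1.97 h (adjusted p = 0.0170), in genes whose separate rhythms were not called by the combined test in either regimen. The limma F test called the DRF rhythm of both genes. The Prdm16 call was lost without the ZT24 libraries (adjusted p = 0.0954), without replicate 1 (0.361) and without replicate 4 (0.105). No member was called for a different amplitude (1.48% of all genes), with 4 of 9 at an unadjusted p under 0.05 in the Wald test on deposited values, where 12.4% of all genes were, and 4 of 9 on log2(CPM + 1), where 14.1% were.

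When NRF times were moved by 12 h, so that both regimens started with the phase with food, 1 of 9 members still had a different rhythm, against 21.1% of all genes. It was Ucp2 (adjusted p = 0.0337), and the call was lost in 7 of 56 fits without a single library: DRF ZT8 replicates 1 and 2, DRF ZT12 replicate 2, DRF ZT24 replicate 4, NRF ZT8 replicates 2 and 4, and NRF ZT24 replicate 3. Adjusted p over those fits ran from 0.00712 to 0.0665. Ppargc1a (0.051) and Ucp3 (0.0691) were next, and they were called in 19 and 5 of the 56 fits. Ucp1 (adjusted p = 0.207) and Dio2 (0.210), both called in clock time, were not called in feeding time with all libraries. Dio2 was called without DRF ZT0 replicate 4 (0.0404), and had an adjusted p of 0.0956 without both DRF libraries that stood apart. The change from clock time to feeding time was not itself tested.

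Genes around the members give the setting. These lists were drawn up with earlier results of these data known. Over all genes tested, 46.6% had a different rhythm, 15.4% were higher and 14.2% were lower in mean level, and each count is set beside these shares. Of 14 adrenergic and cAMP genes, 8 had a different rhythm, 2 were higher and 4 lower in mean level under DRF. Adrb3, the beta-3 adrenergic receptor through which noradrenaline acts on adipocytes, peaked at 7.48 h under NRF and at 19.0 h under DRF (adjusted p of the rhythm difference = 3.33e-12). It lay between 78.3 and 673 CPM. Pde3b, a phosphodiesterase that lowers cAMP in response to insulin, moved from 9.78 to 21.1 h (adjusted p = 1.44e-16), and Prkar2b, a regulatory subunit of protein kinase A, from 11.4 to 23.5 h (adjusted p = 2.83e-15).

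Of 13 partners and targets of the PGC-1 coactivators, 10 had a different rhythm (46.6% over all genes), 4 were higher (15.4%) and 1 was lower (14.2%). The nuclear receptor genes Esrra (adjusted p = 5.80e-08) and Esrrb (3.86e-13) peaked at 16 and 19.6 h under NRF and at 6.00 and 9.34 h under DRF. The coactivator relative Pprc1 also differed (8.65e-06), with a peak at 19.6 h under NRF, and its DRF rhythm was not called (adjusted p = 0.175). Of 13 tested regulators of brown adipocytes, 6 had a different rhythm (46.6% over all genes), 5 were lower (14.2%) and none was higher (15.4%) in mean level. Fgf21, a hormone gene that was low at a median of 0.618 CPM, peaked at 20.4 h under NRF and 6.33 h under DRF (7.79e-09). Nrg4, a secreted growth factor of brown fat, was lower on average under DRF (-0.22 ± 0.07, adjusted p = 0.0237), and its rhythm differed (2.80e-17).

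Of 12 other brown adipocyte effectors, 3 were higher (15.4% over all genes), 2 were lower (14.2%) and 3 had a different rhythm (46.6%). Gk, glycerol kinase, was higher under DRF by 0.36 ± 0.07 (adjusted p = 7.90e-05). Of 7 beige markers, 3 were lower (14.2% over all genes) and none was higher (15.4%). They were Ear2 (-0.57 ± 0.10, adjusted p = 2.68e-05), Tmem26 (-0.28 ± 0.09, adjusted p = 0.0136) and Slc27a1, a fatty acid transporter (-0.22 ± 0.08, adjusted p = 0.0364). Ear2 is also made by eosinophils and macrophages, and 6 of 10 macrophage markers were lower. The part of those cells in the lower Ear2 was not tested.

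Of 9 repressors of the brown programme, 2 were higher, Zfp423 (0.25 ± 0.08, adjusted p = 0.0089) and Rb1 (0.19 ± 0.05, adjusted p = 0.00226), and 1 was lower, while 6 had a different rhythm. The shares over all genes were 15.4%, 14.2% and 46.6%, and they apply equally to the next lists. Of 11 genes of other heat-producing cycles, 2 were higher, none was lower and 2 had a different rhythm. Pm20d1, which makes N-acyl amino acids, rose by 0.67 ± 0.09 under DRF (adjusted p = 1.01e-07), and Gamt, of creatine synthesis, by 0.35 ± 0.09 (adjusted p = 0.00425). Of 5 thyroid hormone genes tested, 2 were lower and 4 had a different rhythm.

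Of 11 family relatives of the members, 3 were higher (15.4% over all genes), 2 were lower (14.2%) and 5 had a different rhythm (46.6%). The elongase gene Elovl6 was higher under DRF, as Elovl3 was, by 1.07 ± 0.29 (adjusted p = 0.00354), and Elovl5 was lower (-0.28 ± 0.07, adjusted p = 0.00158). Cidec, the lipid droplet protein of white fat, lay between 937 and 4787 CPM and kept a mean difference of -0.20 ± 0.09 that was not called (adjusted p = 0.0993), but its peak moved from 12.3 to 23.3 h (adjusted p of the rhythm difference = 1.43e-09). The median mean-level difference of the lists ran from -0.17 (beige markers) to 0.13 (brown effectors), against -0.0028 over all genes.

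The genes whose pattern was most like a member were found over the 56 libraries among 14303 genes with a mean of at least 1 CPM, as Pearson r of log2(CPM + 1). For Ucp1 they were Cidea (0.78), Cul4b (0.63), Hoxa13 (0.60), Gm13991 (0.58) and Prkacb (0.57). For Cidea they were Ucp1 and Cox8b (0.71), which encodes a cytochrome oxidase subunit and lay between 13.4 and 59.0 CPM. The closest pair of all was Ucp3 with Slc25a44 (0.92), a mitochondrial carrier of branched-chain amino acids, followed by Ddhd2 (0.90). Ucp2 was nearest to Fbxo21 (0.85) and Tmem86a (0.84), and Elovl3 to Acsf2 (0.84) and Gm35986 (0.84). Dio2 was nearest to D10Wsu102e (0.82) and Plch2 (0.79), but these fell to 0.68 and 0.59 without the 2 DRF libraries that stood apart, where the nearest were Rxra (0.71) and Mbp (0.71). Ppargc1a was nearest to Notch2 (0.61) and Ccdc57 (0.59), Ppargc1b to Tob1 (0.67) and Gprc5b (0.65), and Prdm16 to Magix (0.67) and Cntnap1 (0.59). Without the 2 libraries the brown-fat gene Otop1, a proton channel, came second to Cidea for Ucp1 (0.73) and first for Cidea (0.80), and Cox8b fell to 0.64 for Cidea. Ppargc1a, Elovl3 and Ucp2 kept both of their nearest genes.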

How the data were processed

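RNA was measured in 56 VAT libraries (polyA RNA, NEBNext Ultra, paired-end sequencing). The submitters' processing notes name HISAT2 2.0.5, featureCounts 1.5.0-p3 and mm10, without roles or settings. The deposited table holds 1 score per gene and library, named as TPM but not linear: the values were log2(CPM + 1) divided by exon length and rescaled per library. Whether the authors counted by strand is not given in the sources used here. From the step sizes of low genes, each library's scale and effective size were found and whole reads taken back for 25938 of 25939 genes. The result was whole, with a tolerance of 0.02, in 99.999836% of the 1216030 values that came to 10000 reads or fewer. Exon lengths came from GENCODE vM21 for 25045 genes and from the values for 878, Cidea and Elovl3 among them. For 15 abundant genes the whole-read test could not be made.

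Because the deposited unit is a score, no count model was fitted. Genes with a mean CPM of at least 0.1 were tested (19748). Rhythms per regimen used JTK_CYCLE and Lomb-Scargle on the deposited values, and amplitude and phase used a 24-h cosine per regimen after CircaCompare, with Wald tests. Mean level, rhythm differences and time points used limma 3.58.1 (R 4.3.3) with an intensity trend on log2(CPM + 1), all 56 libraries and 1 spread per gene. Tests were two-sided, with Benjamini-Hochberg adjustment over all genes tested. Correlations used 100000 permutations, adjusted over the relations computed. Fold changes on the log2(CPM + 1) scale understate those of low genes. Intervals of log2 differences rest on 50 (mean level) or 42 (time points) residual degrees of freedom. Read recovery, the rhythm calls, the interval of the phase shift, and the limma tests of mean level and rhythm difference were tried on simulated data.

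Named genes were all members, the genes nearest to each by correlation (5 for Ucp1, 2 for the others), and at most 3 per list with the largest difference among those called. The members and lists were chosen with earlier results of these data known. Replicates are separate mice as far as the labels tell. If they are not, p-values measure only the spread between samples. Alternatives were another filter, scaling, pseudocount, value scale, weighting, the replicate number as a block, and leaving out libraries. Leaving out single libraries, and the spread and likeness without the 2 DRF libraries, were chosen after seeing the data.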

Additional observations from a re-analysis of the deposited data

Results flagged for a closer look

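In 6 of 126 groups of 4 mice tested, 1 mouse lay far from the other 3 by Dixon's ratio on the log2(CPM + 1) scale, near the 1 in 20 groups that chance alone gives. Ucp1 was low in DRF ZT4 replicate 3 (1.25 CPM), and Cidea in DRF ZT8 replicate 1 (2.32 CPM). Dio2 was high in DRF ZT0 replicate 4 (51.4 CPM), 1 of the libraries rich in epithelial markers. Elovl3 was high in NRF ZT4 replicate 2 (4.90 CPM) and low in NRF ZT16 replicate 1 (1.72 CPM). Prdm16 was low in DRF ZT16 replicate 3 (6.96 CPM).

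The rhythm differed between the regimens, by the interaction test in limma, for Ucp1 (adjusted p = 0.0361), Dio2 (0.00186), Ppargc1b (0.00437), Ucp2 (5.25e-10) and Ucp3 (8.98e-07). The change between mid-fast and mid-feed differed between the regimens for Ucp3 (adjusted p = 0.0246). As given above, that call was lost without the DRF libraries that stood apart, and the Ucp1 call in some fits without a single library.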

How the results depend on the processing

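Alternatives mattered most for members near the threshold. With a mean CPM of at least 1, 3 members were rhythmic under NRF (40.3% of all genes in that setting) and 2 under DRF (21%), 1 differed in amplitude (2.31%), 2 in rhythm in feeding time (27.5%) and 2 between mid-fast and mid-feed under DRF (21.4%). The limma F test gave 5 rhythmic members under NRF (44.6%) and 3 under DRF (35.9%). Without the 2 DRF libraries that stood apart, 2 were rhythmic under DRF (21.7%) and 2 differed in feeding time (26.8%). A pseudocount of 0.1 gave 2 in feeding time (21.2%) and 2 between mid-fast and mid-feed under DRF (16%), and median-of-ratios scaling (21.3%) and log2(deposited value + 1) (18%) each gave 2 in feeding time. With total read scaling, 2 members differed in mean level (30.2%). Of all mean-level calls, 37.6% were then higher under DRF, against 51.9% with the main settings. The share of mid-fast to mid-feed calls that were higher moved from 45.3% to 61.3% under NRF and from 50% to 30.5% under DRF. For their difference it moved from 55.8% to 21.5%. With log2(deposited value + 1) these shares went the other way, to 41.9%, 61.9% and 66.8% in the same order. The Ucp1 correlation count rose from 1 to 5 with the group means taken off and to 2 in DRF libraries. In NRF libraries Ucp2 also passed by Spearman rho (0.488, adjusted p = 0.0387) but not by Pearson r (0.45, adjusted p = 0.0655), and in DRF libraries its rho was -0.33 (adjusted p = 0.137). The difference between the regimens was not tested.

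When each replicate number was left out in turn, rhythmic members under DRF ranged from 0 to 1 (6.21% to 9.55% of all genes), different phases from 3 to 6 (44.7% to 47.2%), different rhythms from 3 to 6 (37.7% to 42.3%), different rhythms in feeding time from 0 to 3 (8.09% to 18.2%), and mid-fast to mid-feed differences under DRF from 0 to 2 (8.95% to 13.2%). Leaving out single libraries gave 1 to 2 different mean levels (27% to 34.7% of all genes) and 0 to 3 different rhythms in feeding time (18.6% to 26%). The mean difference of Ucp1 turned to 0.052 with log2(deposited value + 1), and leaving out a replicate number moved it between -0.47 and 0.098. That of Cidea turned to -0.074 without ZT24 and lay between -0.10 and 0.15 without a replicate number, and that of Dio2 turned to 0.0020 without ZT24 and lay between -0.22 and 0.014. None of these was called. Of 1407 values of single genes under alternatives, 1327 stayed on the same side of the threshold, called or not, 56 lost a call, 18 gained one and 6 changed sign. Sign was followed only for level differences and for the correlation of Cidea with Ucp1, not for rhythms, amplitudes or phase shifts. Some phase shifts that were not called changed sign, such as that of Ucp1, at 8.98 h with the main settings and -5.80 h without replicate 3. The causes were not tested.

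Same-numbered mice were little alike: 7 of 28 same-numbered pairs had a correlation of deviations over 0.1 (-0.26 to 0.31). The median was 0.015, against -0.018 for differently numbered mice. Whether same-numbered mice share anything is not given in the labels. With the replicate number as a block, 2 members differed in rhythm in feeding time (22.4%) against 1, and the other counts were equal. Few reads limit the lowest members, with 13 reads of Ucp1 or Dio2 and 8 of Elovl3 in the poorest library.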
